A study of Homo sapiens with 9 samples.

Results

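Accessible chromatin was described at 10 genes of the YAP and TEAD pathway: the DNA-binding factors TEAD1, TEAD2, TEAD3 and TEAD4, their coactivators YAP1 and WWTR1 (whose protein is TAZ), the kinases LATS1 and LATS2, and the target genes CCN1 and CCN2. Peaks were assigned to a gene on GRCh37 by their centre, which had to fall between 20 kb before and 20 kb after the gene. By that rule the 10 genes, of 20098 protein-coding genes, held 1276 of 2164004 deposited peaks over 9 libraries, 344 of the 450000 peaks kept when each library was reduced to its 50000 strongest, and 75 of the 106131 regions made by joining overlapping kept peaks. Of the 75 regions, 10 lay at a promoter of the gene itself (midpoint within 1 kb of a protein-coding start), 4 at the promoter of another gene, and 61 were distal.

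The libraries were ATAC-seq, in which Tn5 transposase inserts adapters into open chromatin, from 50000 cells each. K562 is an erythroleukaemia line of human origin that grows in suspension, and STAG2 encodes a subunit of cohesin. Parental K562 cells without a STAG2 mutation, 1 line heterozygous for the nonsense change STAG2 R614* and 1 line homozygous for it were each profiled in 3 libraries, so that line and genotype cannot be told apart. All were grown in IMDM with fetal bovine serum, and by the labels' growth protocol the homozygous cells were adherent and were detached with trypsin-EDTA. Adherent growth therefore coincided with the homozygous genotype in all 3 of its libraries, and the 2 cannot be told apart in any comparison here. No label says that replicates were separate cultures, so the spread between them may be technical.

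The deposited lists held 181407 to 319697 peaks on chromosomes 1 to 22 and X. They hold no read counts, so the depth is unknown, and the 50000 strongest by the authors' peak p-value were used to put libraries on 1 scale. Not all lists were separate: 46.0% of the intervals of the shorter list of wild type 3 and heterozygous 1 had the same start and end in the other, as did 23.2% for wild type 1 and 2, against 0.223% to 0.351% for 33 other pairs and 1.17% for heterozygous 2 and 3. At the 10 genes, 61 of 135 intervals were the same in wild type 3 and heterozygous 1, and 28 of 137 in wild type 1 and 2. Of 8 erythroid and K562 marker genes, 5 or 6 had a strong promoter peak in each library (GATA1 and KLF1 in none, although GATA1 had a weaker one in 8 of 9). The 4 lymphoid and 3 endothelial markers had none, while fibroblast markers had 2 of 4 in each library (COL1A1 and COL1A2) except homozygous 2 with 3, and epithelial markers 1 of 4 (EPCAM) except homozygous 2 with 2. The part of these differences in the results below was not tested.

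YAP1 and TAZ carry the output of the Hippo pathway. When the kinase cascade is active, LATS1 and LATS2 phosphorylate both proteins and keep them out of the nucleus; when it is not, YAP1 and TAZ bind TEAD factors at DNA sites with the core GGAATG and raise genes such as CCN1 and CCN2, which encode secreted matrix-associated proteins. Attachment and cell shape are known inputs of the pathway, and many TEAD-bound enhancers also bind AP-1, a dimer of FOS and JUN proteins that recognises TGANTCA. Blood cells in suspension are generally a setting of low YAP activity.

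The sequences below come from some of the regions that separated the homozygous libraries by presence of a peak. Presence was read among the strongest peaks or in the full lists. Each sequence is 300 bases around the region's midpoint, read from GRCh37 on the plus strand. Matches to GGAATG or TGANTCA on either strand are in capitals. The CCN2 promoter is given further below for comparison. The CCN2 upstream region and the YAP1 intronic and downstream regions had peaks mainly or only in the homozygous line, and the TEAD1 intronic region lacked a strong peak there.
CCN2 upstream, chr6:132275924-132276223: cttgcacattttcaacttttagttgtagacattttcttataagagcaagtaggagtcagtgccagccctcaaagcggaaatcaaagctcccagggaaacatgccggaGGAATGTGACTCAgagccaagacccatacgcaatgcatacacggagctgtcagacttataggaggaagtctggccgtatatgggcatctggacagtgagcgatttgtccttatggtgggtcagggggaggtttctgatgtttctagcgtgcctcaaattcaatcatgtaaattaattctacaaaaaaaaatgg
YAP1 intronic, chr11:102049088-102049387: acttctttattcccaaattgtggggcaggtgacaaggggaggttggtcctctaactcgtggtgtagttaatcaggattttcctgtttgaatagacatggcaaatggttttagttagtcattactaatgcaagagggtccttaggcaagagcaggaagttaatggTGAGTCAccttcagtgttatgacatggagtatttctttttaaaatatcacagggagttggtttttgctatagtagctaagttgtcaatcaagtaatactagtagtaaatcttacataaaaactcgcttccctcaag
YAP1 downstream, chr11:102115803-102116102: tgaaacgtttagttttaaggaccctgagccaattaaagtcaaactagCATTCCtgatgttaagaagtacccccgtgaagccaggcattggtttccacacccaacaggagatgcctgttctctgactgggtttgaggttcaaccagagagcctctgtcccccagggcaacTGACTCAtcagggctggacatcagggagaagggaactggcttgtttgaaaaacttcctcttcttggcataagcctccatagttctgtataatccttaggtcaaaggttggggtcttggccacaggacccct
TEAD1 intronic, chr11:12875323-12875622: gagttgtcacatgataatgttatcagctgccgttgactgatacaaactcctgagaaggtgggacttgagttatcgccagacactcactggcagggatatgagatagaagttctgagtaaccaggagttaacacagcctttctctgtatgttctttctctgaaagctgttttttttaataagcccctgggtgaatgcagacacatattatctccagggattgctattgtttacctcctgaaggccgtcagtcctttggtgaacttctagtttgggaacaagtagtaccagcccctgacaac

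In the CCN2 upstream region a GGAATG and a TGACTCA stand directly next to each other. The YAP1 intronic window holds TGAGTCA and no GGAATG, the YAP1 downstream window holds CATTCC, which is GGAATG on the other strand, and a TGACTCA, and the TEAD1 window holds neither. A match describes the letters and does not show a bound site. In windows of 500 bp around region midpoints, GGAATG was found in 23 of the 75 regions (30.7%) and in 23.8% of all regions, and TGANTCA in 24 of 75 (32%) and in 22.9% of all. Both were found in 8 of 75 (10.7%) and in 6.08% of all, 8 regions that included the CCN2 upstream and the YAP1 downstream ones.

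The CCN2 promoter is the textbook TEAD target. RefSeq's table (GRCh38.p14) held promoters of 7 of the 10 genes (TEAD2, TEAD3, YAP1, WWTR1, LATS1, LATS2 and CCN2), and the 250 bases before the CCN2 start, on the minus strand, are shown with GGAATG in capitals.
CCN2 promoter, chr6:131951373-131951622: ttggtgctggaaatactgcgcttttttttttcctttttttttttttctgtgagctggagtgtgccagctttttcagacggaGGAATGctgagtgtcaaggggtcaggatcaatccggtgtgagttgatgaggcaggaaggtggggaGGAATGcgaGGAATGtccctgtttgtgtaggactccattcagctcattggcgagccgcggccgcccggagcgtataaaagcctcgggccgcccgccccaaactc
The window holds 3 matches between -169 and -95 bp, a number reached by 0.0826% of 35116 RefSeq promoter windows of that length, whereas 11.9% hold at least 1. YAP1 held 1 and the other matched members held none.

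Over the 10 genes the number of strong peaks was close in all libraries. Wild type 1, 2 and 3 had 37, 36 and 39, heterozygous 38, 35 and 36, and homozygous 39, 39 and 45. The means were 37.3 ± 1.53, 36.3 ± 1.53 and 41 ± 3.46 (SD, n = 3 libraries each), and homozygous 3 alone lay above all others. In the full lists the same libraries had 137, 160 and 152, then 135, 120 and 131, then 117, 136 and 188, with the lowest number in the shortest list and the highest in the longest, and the homozygous mean 2.67 below the wild-type mean.

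No gene differed in peak number between genotypes after adjustment. By an exact permutation test of the between-genotype sum of squares over all 280 ways to assign the libraries, Benjamini-Hochberg adjusted over 19211 genes with a peak, 0 of the 10 genes and 0 of 19211 passed 0.05 (0% called). Unadjusted, 0 of 10 genes and 1845 of all genes (9.60%) had a p below 0.05. Homozygous numbers were all above the other 6 at 0 of the 10 genes and all below at 0, against 4.01% and 3.38% of all genes. The smallest p that 3 against 3 against 3 can give is 0.00357, so 7.14% of all genes would have had to reach it for any to pass, and 0.224% did. The lowest among the 10 was CCN1 at 0.107 (adjusted 0.645).

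**Figure D1:**
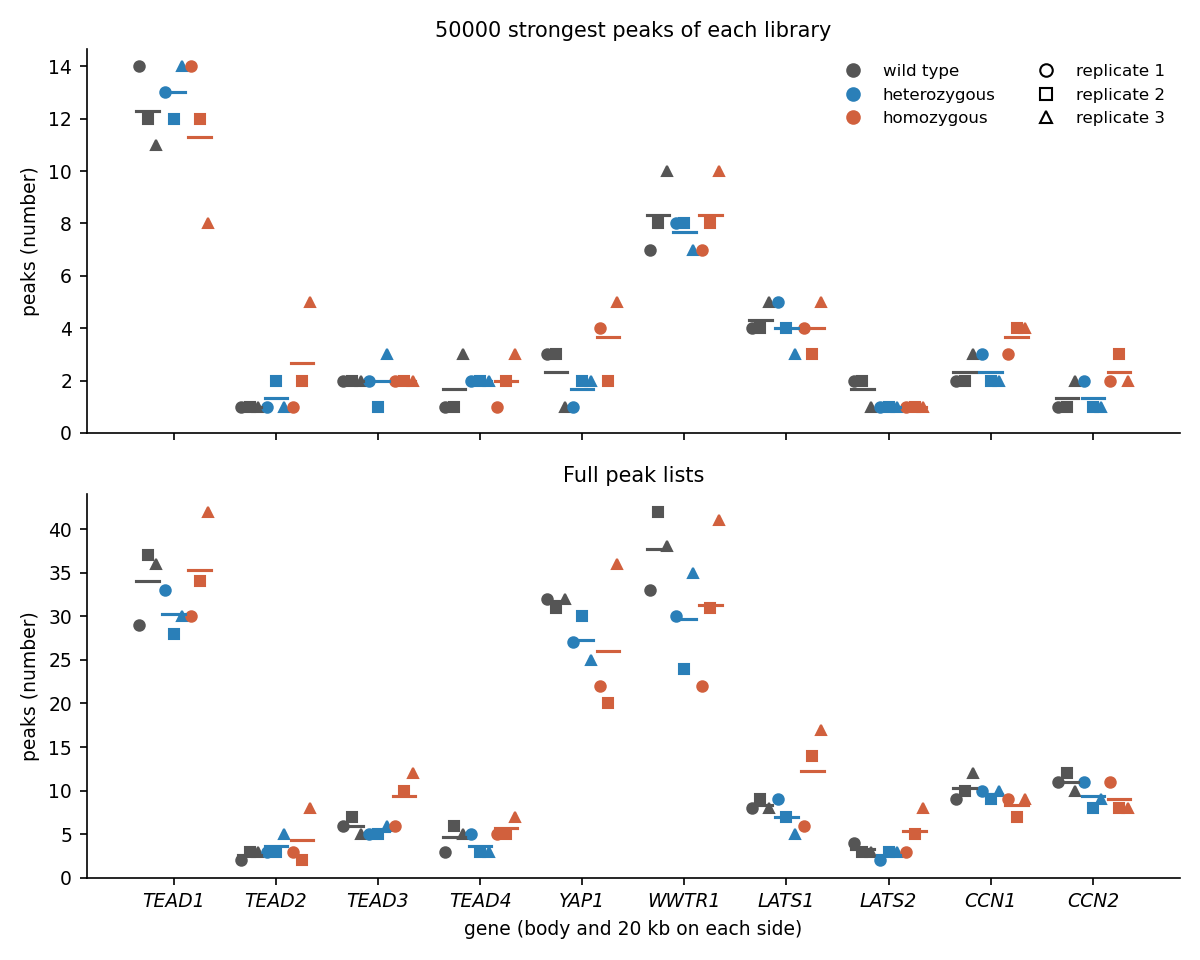
Number of peaks at each gene (vertical axis) in each of the 9 libraries, among the 50000 strongest peaks (top) and in the full lists (bottom). Points are libraries coloured by genotype with the replicate as symbol, and horizontal lines are means. TEAD1 and WWTR1 held the most strong peaks, and homozygous replicate 3 had the fewest at TEAD1 (8) and the most at TEAD2 (5).

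The rule that fits lists of peaks was presence in all 3 libraries of 1 genotype and in none of the other. Between homozygous and wild type, 3 of 72 regions at the 10 genes (4.17%) differed in that way, against 6.22% of all 95643 regions tested (present in homozygous only, 1 region against 2.75% of all; in wild type only, 2 regions against 3.47%). Between heterozygous and wild type 0 of 57 did, against 0.937% (0.423% in heterozygous only and 0.515% in wild type only). Between homozygous and heterozygous 2 of 70 did (2.86%, against 6.57%), 1 in each direction (3.16% of all in homozygous only and 3.41% in heterozygous only). Present in all 3 homozygous libraries and none of the other 6 was 1 region (1.33% of 75, against 1.81% of all), and missing only from homozygous libraries was 1 (1.33%, against 1.56%), together 2 of 75 (2.67%) against 3.37%. The shares at the 10 genes were below those over all regions, but all of these counts come from the same 3 regions. Counts this small do not set the 10 genes apart from all regions. Of the 14 promoter regions 0 differed between homozygous and wild type, against 2.89% of all promoter regions, and 0 were homozygous-specific, against 1.47%. Of the other regions 3 of 58 differed between homozygous and wild type (5.17%, against 6.80%) and 2 of 61 were homozygous-specific (3.28%, against 3.68%).

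Strength was compared by percentile, with 100 for the strongest of a library's 50000 peaks and 0 where none of them lay in the region. The same exact permutation test, adjusted over 106131 regions, called 0 of 75 and 0 of all regions (0%), with 0.755% of regions at the smallest possible p and a smallest adjusted p of 0.373. Unadjusted p-values were below 0.05 for 8 of 75 (10.7%), against 10.6% of all. The homozygous percentiles lay all above the other 6 in 4 of 75 regions (4.82% of all regions) and all below in 4 of 75 (4.43% of all). Across the 75 regions the median homozygous minus wild-type difference was 1.71 percentile points, against 0 over all regions.

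**Figure D2:**
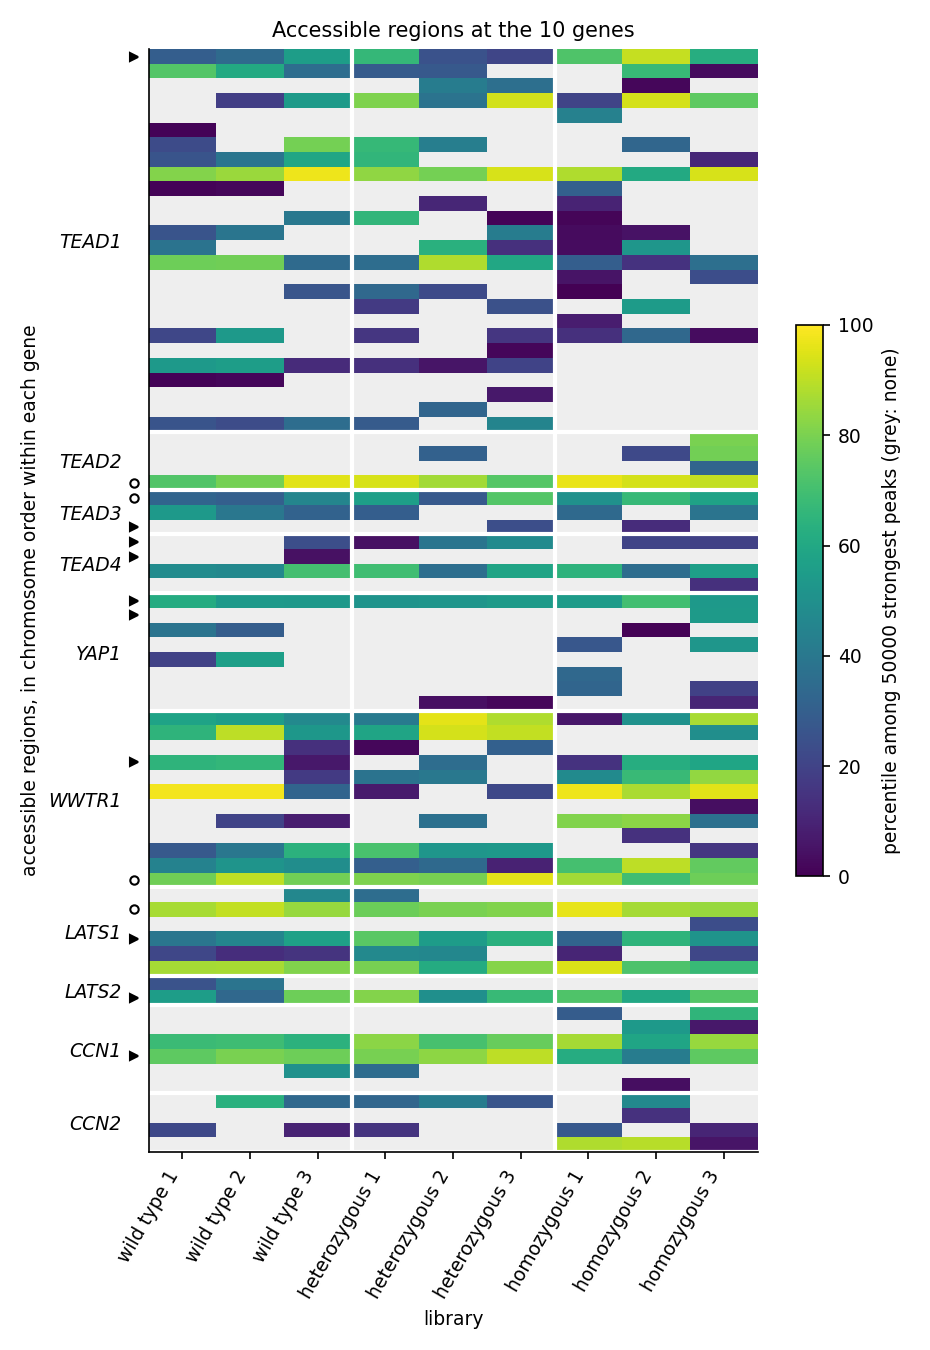
Percentile of each library (columns) in each of the 75 regions (rows), grouped by gene and in chromosome order. Colour runs from 0 to 100, grey cells had none of the 50000 strongest peaks, filled triangles are the gene's own promoters and open circles promoters of other genes. In all 9 libraries 16 regions were present, and 17 in 1 library.

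Most regions were not shared by all libraries. Of the 75, 16 (21.3%) were present in all 9, against 18.1% of all regions, and 17 (22.7%) in only 1, against 30.4%. Promoter regions were the steady ones: 9 of 14 were present in all 9 libraries (64.3%, against 55.9% of all promoter regions), and 7 of 61 others (11.5%, against 12.0%).

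Among the TEAD genes, whose products bind DNA but need a coactivator to raise transcription, TEAD1 was by far the richest in accessible regions, with 26 over a body of 270317 bp. Wild-type libraries had 14, 12 and 11 strong peaks there, heterozygous 13, 12 and 14, and homozygous 14, 12 and 8. The groups overlapped, and the difference in means of -1 rested on homozygous 3: without it the difference was 0.667. In the full lists that library had the most TEAD1 peaks of all.

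The TEAD1 promoter region (chr11:12695186-12696967, over the 5′ UTR) was present in all 9 libraries. Its percentiles were 29.9, 34.6 and 55.8 in wild type, 66.6, 25.2 and 20.8 in heterozygous and 72.4, 91.4 and 62.2 in homozygous libraries. Homozygous 3 was below heterozygous 1, and all other homozygous values were above the other 6. The strongest distal TEAD1 region (chr11:12767994-12768889, intronic) had medians above 80 in each genotype, with 81.6, 84.9 and 97.6, then 83.4, 79.0 and 94.0, then 88.0, 60.8 and 93.9, and the groups overlapped.

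A pair of TEAD1 regions lacked strong homozygous peaks. The intronic region whose sequence is shown (chr11:12874683-12876262) had percentiles of 54.2, 55.7 and 12.3 in wild type, 13.9, 5.69 and 20.1 in heterozygous and 0 in all 3 homozygous libraries, and was the only 1 of the 75 missing just from homozygous libraries. Weaker peaks were called there in all 3, at full-list ranks 138823, 65986 and 99754, against ranks of 22133 to 47156 in the other 6 (exact permutation p = 0.0429, adjusted 0.416). Downstream of the gene (chr11:12985491-12986074) the values were 26.1, 23.2 and 35.9 in wild type, 28.9, 0 and 45.1 in heterozygous and 0 in homozygous libraries, so this region separated homozygous from wild type but not from heterozygous.

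TEAD2, TEAD3 and TEAD4 had few regions. At TEAD2 the wild-type libraries had 1 peak each, heterozygous 1, 2 and 1, and homozygous 1, 2 and 5. The strongest TEAD2 region in all libraries (chr19:49866481-49867507, 72.9 to 96.7) was the promoter of DKKL1, at -1280 bp from the nearest TEAD2 start. The TEAD2 promoter itself had no strong peak in any library and a weak one in 3 of 9. Of the other 3 TEAD2 regions, 2 were found only in homozygous 3, at 79.7 and 32.5.

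TEAD3 had 2 strong peaks in all libraries but heterozygous 2 (1) and heterozygous 3 (3). Its promoter had a full-list peak in 9 libraries that ranked among the 50000 strongest in only 2, heterozygous 3 (23.9) and homozygous 2 (12.8). Its strongest region, at 27.8 to 73.1, was the promoter of RPL10A, which encodes a ribosomal protein, and its strongest distal region (chr6:35457787-35458310, intronic) was present in 6 libraries of all genotypes.

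TEAD4 had 1, 1 and 3 strong peaks in wild type, 2 in each heterozygous library, and 1, 2 and 3 in homozygous libraries. Its promoter region (chr12:3067632-3068756) was at 0, 0 and 23.9, then 4.30, 38.9 and 47.9, then 0, 20.6 and 19.5, and so was absent from wild type 1 and 2 and from homozygous 1. The strongest TEAD4 region, intronic (chr12:3107762-3109171) and holding both motifs, was present in all libraries, at 46.7 to 70.1, 36.1 to 69.2 and 35.9 to 64.7 in the 3 genotypes.

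YAP1, which binds TEAD proteins and activates transcription with them, had an accessible promoter in all libraries at nearly 1 level. The promoter region (chr11:101980413-101981626) was at 61.7, 54.2 and 53.5 in wild type, 51.2, 52.3 and 54.5 in heterozygous, and 54.7, 69.8 and 54.2 in homozygous libraries. The groups overlapped. Peak numbers were 3, 3 and 1, then 1, 2 and 2, then 4, 2 and 5 (exact permutation p = 0.221, adjusted 0.749), and in the full lists the homozygous mean lay 5.67 below the wild-type mean.

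Distal YAP1 regions differed between libraries. The intronic region shown above (chr11:102048969-102049507) had no peak of any strength in the 6 wild-type and heterozygous lists. Its homozygous percentiles were 27.2, 0 and 52.5, with full-list ranks 36378, 78383 and 23765. The downstream region (chr11:102115686-102116220, beyond the 3′ end) had the same pattern, with no peak in the other 6 full lists, homozygous percentiles of 32.6, 0 and 19.5, and ranks 33676, 87888 and 40271. A full-list peak in all 3 homozygous and none of the other 6 libraries was thus found at 2 of the 75 regions (2.67%), both at YAP1, against 1.92% of all regions. A peak p-value threshold sets which weak peaks enter a list, so absence here means below that threshold.

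Another pair of YAP1 regions, both intronic, had strong peaks mainly in wild type 1 and 2. The region at chr11:101993030-101993936 was at 38.3 and 29.5 in wild type 1 and 2, at 0.698 in homozygous 2 and at 0 in the rest, and that at chr11:102097363-102097866 was at 19.7 and 56.5 in wild type 1 and 2 only. At the second, weaker homozygous peaks had full-list ranks 70638, 50732 and 51369. Wild type 1 and 2 are the libraries with 23.2% of intervals in common. As both are wild type, sharing and genotype cannot be told apart here.

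WWTR1, the TAZ gene, held 12 regions and 5 of the 8 regions with an unadjusted p below 0.05. Its peak number did not separate the genotypes, with 7, 8 and 10 in wild type, 8, 8 and 7 in heterozygous and 7, 8 and 10 in homozygous libraries. Its only promoter region among the strong peaks (chr3:149293474-149294521, over a UTR) lay at an internal start. The midpoint was 161 kb from the 5′ end of a gene of 219480 bp. The region was at 65.0, 66.1 and 6.41, then 0, 35.6 and 0, then 14.7, 62.3 and 58.7, so that wild type and homozygous overlapped. The strongest region with a role at another gene was the COMMD2 promoter (69.3 to 95.9 over all libraries).

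Inside WWTR1, homozygous percentiles were the highest at some regions and the lowest at others. The region at chr3:149299380-149300171 (intron, -5737 bp from the nearest WWTR1 start) was at 0, 0 and 17.0 in wild type, 37.9, 39.9 and 0 in heterozygous and 47.9, 67.9 and 83.6 in homozygous libraries. The homozygous values exceeded all others (exact permutation p = 0.0214, adjusted 0.373), and its window holds 3 TGANTCA matches. At chr3:149377537-149378057 (intron) the values were 0, 20.2 and 8.03, then 0, 36.9 and 0, then 80.9, 82.5 and 37.0, with the lowest homozygous and the highest heterozygous value almost equal.

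The region that most evenly separated the homozygous line was at chr3:149458679-149459197, upstream of WWTR1 and inside the body of COMMD2. It was present in all libraries, at 44.3, 51.6 and 49.0 in wild type, 30.2, 34.3 and 9.43 in heterozygous and 70.6, 89.9 and 75.8 in homozygous libraries. The 3 groups did not overlap, and the exact permutation p was the smallest possible, 0.00357, with an adjusted p of 0.373. The homozygous mean exceeded the wild-type mean by 30.5 points, and by 24.9 to 34.6 with any 1 library left out. The window holds neither motif.

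Lower in homozygous libraries was the intronic region at chr3:149248343-149249070, with 65.0, 90.1 and 53.0, then 58.3, 93.6 and 91.0, then 0, 0 and 49.3 (exact permutation p = 0.0286, adjusted 0.373). Homozygous 3 came within 4 points of wild type 3 but below it. The intronic region at chr3:149435159-149435680 was at 28.1, 39.8 and 64.3, then 71.3, 52.7 and 53.2, then 0, 0 and 15.8 (p = 0.0107, adjusted 0.373, same exact permutation test). Another intronic region, at chr3:149286648-149287165, had a full-list peak in all 6 wild-type and heterozygous libraries and in none of the homozygous 3, a pattern of 1 of the 75 regions (1.33%) and of 1.66% of all. Its peaks were weak, at 0, 0 and 14.0, then 1.85, 0 and 30.8. Its window holds neither motif, and its sequence is not shown.

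Heterozygous values were the lowest of all libraries at an intronic WWTR1 site, chr3:149363865-149364665. It was at 98.3, 98.1 and 32.2 in wild type, 7.07, 0 and 21.6 in heterozygous and 97.4, 87.2 and 95.4 in homozygous libraries. Wild type 3, which shares 46.0% of its intervals with heterozygous 1, was the lowest of the wild-type libraries. Heterozygous values were also below all others at the region upstream of WWTR1 described above. The same held at the KATNA1 promoter near LATS1 (77.6, 80.0 and 81.2, against 84.4 or more). The share of all regions with this pattern was not computed.

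**Figure D3:**
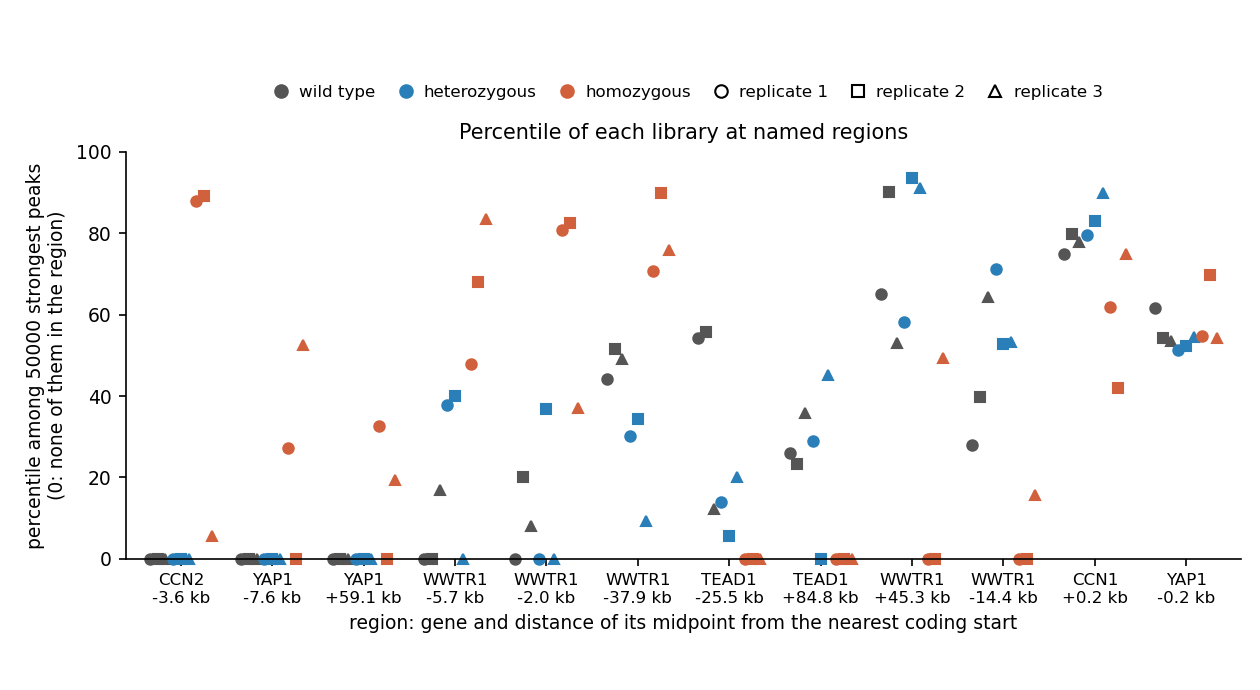
Percentile of each library (vertical axis; 0, none of the 50000 strongest peaks) at 12 regions, named by gene and by distance of the midpoint to the nearest protein-coding start of that gene. Points are libraries coloured by genotype with the replicate as symbol. At the CCN2 upstream region homozygous 1 and 2 lie at 88.0 and 89.1 and homozygous 3 at 5.66, with all other libraries at 0.

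LATS1 and LATS2, the kinases that restrain YAP1 and TAZ, had accessible promoters in all 9 libraries. The LATS1 promoter region (chr6:150038479-150040068) was at 39.3, 45.5 and 57.1 in wild type, 74.6, 55.4 and 63.5 in heterozygous and 32.3, 65.0 and 51.8 in homozygous libraries. The LATS2 promoter region (chr13:21635013-21636121) was at 55.7, 33.6 and 78.1, then 81.6, 49.8 and 67.5, then 72.4, 59.8 and 73.2. Homozygous values lay within the range of the other 6 at LATS2, and only homozygous 1 fell below it at LATS1.

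Peak numbers at the kinases were 4, 4 and 5, then 5, 4 and 3, then 4, 3 and 5 for LATS1, and 2, 2 and 1, then 1 in all 6 others for LATS2. The strongest distal LATS1 region (chr6:150049249-150050397, inside NUP43, a nuclear pore gene) was at 81.1 to 86.9, 61.4 to 82.0 and 67.5 to 94.5 in the 3 genotypes. The second LATS2 region, intronic at chr13:21567702-21568207, was present in wild type 1 and 2 only (25.5 and 38.6), again the pair that shares intervals. No LATS region differed between any pair of genotypes by the presence rule.

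Of the targets, CCN1 (also CYR61) kept an accessible promoter in all libraries. Its region (chr1:86045926-86047361, over the 5′ UTR) was at 75.0, 79.9 and 77.8 in wild type, 79.6, 83.0 and 90.0 in heterozygous and 61.9, 42.0 and 75.0 in homozygous libraries. The homozygous values were at or below the lowest of the others (exact permutation p = 0.0107, adjusted 0.373). The direction depended on the column used to rank peaks: by the authors' fold enrichment, the homozygous mean was 11.5 points above the wild-type mean.

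CCN1 peak numbers were 2, 2 and 3 in wild type, 3, 2 and 2 in heterozygous and 3, 4 and 4 in homozygous libraries, with homozygous 1 level with the highest of the others. Strong peaks found in homozygous libraries alone lay at a pair of regions upstream, inside DDAH1. Homozygous percentiles were 29.0, 0 and 65.6 at chr1:86034300-86035277 and 0, 53.9 and 6.35 at chr1:86035328-86035890. Downstream of the gene, homozygous 2 alone had a strong peak (chr1:86064630-86065129, at 3.75). Weaker peaks of other libraries lay in each of these regions. In the first they ranked 233868 (wild type 2) and 178783 (heterozygous 2) in the full lists. In the second, heterozygous 2 ranked 52702, ahead of homozygous 1 at 69887. Downstream, wild type 2 ranked 53722 with a fold enrichment of 4.5, against 48125 and 4.2 in homozygous 2. The strongest distal region (chr1:86041978-86043425) was present throughout, at 68.3, 69.1 and 64.2, then 82.5, 70.8 and 76.9, then 86.5, 58.9 and 84.6.

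CCN2 (also CTGF) held the only 1 of the 75 regions present in all 3 homozygous libraries and in none of the other 6. The region, chr6:132275817-132276331, lies at -3562 bp from the CCN2 start. Its percentiles were 0 in all 6 wild-type and heterozygous libraries and 88.0, 89.1 and 5.66 in homozygous libraries (exact permutation p = 0.0357, adjusted 0.373). The full-list ranks were 6011, 5439 and 47169 in homozygous libraries, 153593, 200406 and 129923 in wild type and 107596 in heterozygous 1, with no peak in heterozygous 2 and 3. The authors' fold enrichment was 7.8, 7.9 and 4.7 in homozygous libraries and 2.8 to 3.3 in the 4 others with a peak. Homozygous 3 was thus well below homozygous 1 and 2 although its list is the longest, and a limit of 20000 peaks leaves it out of the region.

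The CCN2 promoter was not among the strong peaks. No strong region had its midpoint within 1 kb of the CCN2 start. In the full lists a promoter peak was found in 8 of 9 libraries, with none in homozygous 2. The median percentile within the list was 26.8 over all 9 libraries, with homozygous 2 counted as 0. The CCN2 promoter is the one whose 250 bases with 3 GGAATG matches are shown above. The nearest strong region (chr6:132270884-132272095, exonic, at 1022 bp) was at 21.7, 0 and 9.99, then 15.1, 0 and 0, then 27.4, 0 and 10.4. The distal region with the highest median (chr6:132250339-132250863, downstream) was present in 6 libraries of all genotypes, at 26.2 to 63.5 where present, and was absent from wild type 1 and homozygous 1 and 3. Peak numbers at CCN2 were 1, 1 and 2, then 2, 1 and 1, then 2, 3 and 2.

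**Figure D4:**
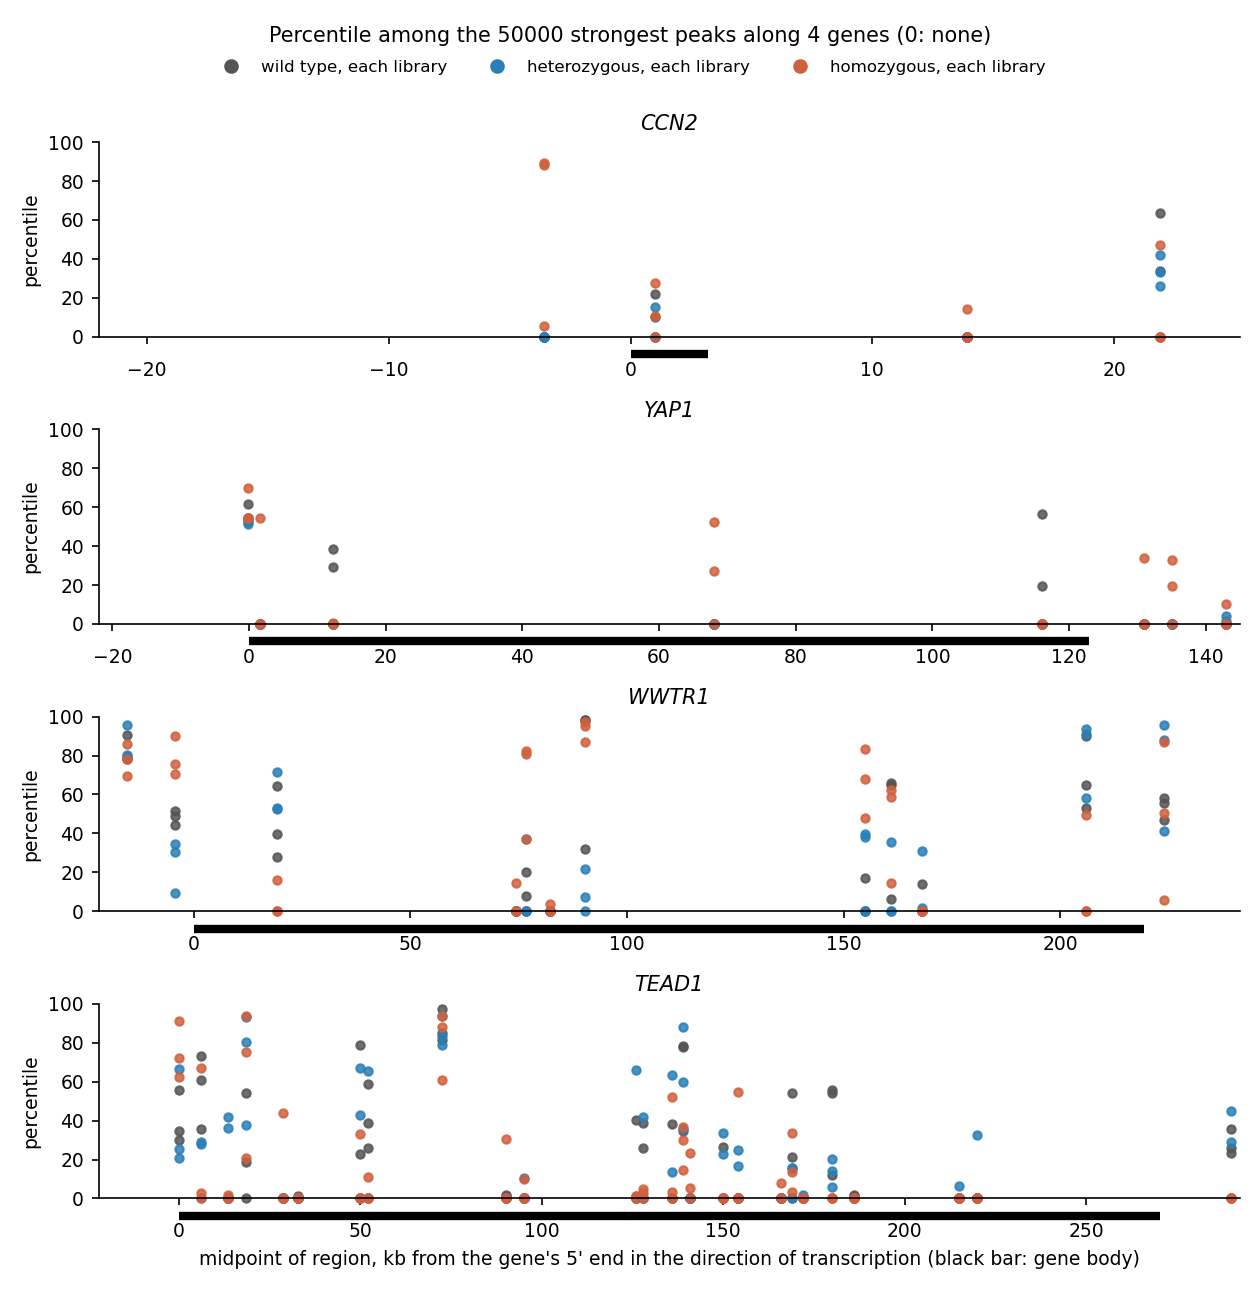
Percentile of each library (vertical axis) against the distance of each region's midpoint from the 5′ end of the gene in kb (horizontal axis) for CCN2, YAP1, WWTR1 and TEAD1. Points are libraries coloured by genotype and black bars are gene bodies. The homozygous points upstream of CCN2 at 88.0 and 89.1 stand alone, while at WWTR1 homozygous points lie above the others at some regions and below at others.

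Among the 50000 strongest peaks over the whole genome, matches to the TEAD core near summits were slightly more frequent in homozygous libraries. Within 50 bp of the summit, GGAATG was found in 4.62%, 4.65% and 4.56% of the 50000 strongest wild-type peaks, in 4.53%, 4.63% and 4.68% of heterozygous peaks and in 4.84%, 4.78% and 4.93% of homozygous peaks. The homozygous libraries were above all 6 others (exact permutation p = 0.0321, adjusted 0.0357 over 3 motifs). The call rested on the number of peaks kept: the homozygous minus wild-type difference was 0.242 points with 50000 peaks, 0.0367 with 20000 (adjusted p = 0.957, same exact permutation test), 0.206 with 100000 (adjusted p = 0.107) and 0.0354 with the full lists (adjusted p = 0.121). The shares were below those at windows 2 kb away, which were 5.33%, 5.44% and 5.46% in the 3 genotypes. Those windows were not matched for base composition, so enrichment of the core over a matched background was not tested. The longer TGGAATG rose likewise, from 1.34% to 1.47% (adjusted p = 0.0357, same exact permutation test), with 1.76% to 1.83% at the shifted windows. It missed the threshold of that permutation test with 20000 peaks (adjusted p = 0.171) and with the full lists (adjusted p = 0.121).

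The AP-1 motif differed more. TGANTCA was within 50 bp of 8.28%, 8.22% and 7.32% of wild-type summits, 7.26%, 7.23% and 7.27% of heterozygous summits and 10.8%, 10.3% and 13.3% of homozygous summits, against 2.84% to 2.93% at shifted windows. The homozygous mean of 11.5% exceeded the wild-type mean of 7.94% by 3.53 points (exact permutation p = 0.00357, the smallest possible, adjusted 0.0107). With the full lists the difference was 2.29 points (adjusted p = 0.0643, same exact permutation test). The smallest p for homozygous against wild type alone is 0.1, which all 3 motifs reached. Neither TEAD core passed the exact permutation test without homozygous 3 (adjusted p = 0.0536 for both), where the differences were 0.201 and 0.0940 points.

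Regions present only in homozygous libraries held TGANTCA in 48.8% of 1924 cases and GGAATG in 27.5%, against 16.7% and 20.7% of the 19221 regions present in all 9. Both motifs were found in 13.5% of the former and 4.23% of the latter. In windows 2 kb away the former held TGANTCA in 15.4% and GGAATG in 24.6%, and the latter in 13.8% and 24.4%. GGAATG in regions present in all 9 was thus below its share 2 kb away. Promoter regions were 8201 of the 19221, against 215 of the 3577 homozygous-specific regions of either direction. The motif shares were not split by promoter and distal. The CCN2 upstream region is 1 of the 260 homozygous-only regions with both. Among the 1653 regions missing only from homozygous libraries, 18.0% held TGANTCA and 24.1% GGAATG. The regions were chosen by their peaks and the motifs were read from the genome, but no test of these shares was made.

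**Figure D5:**
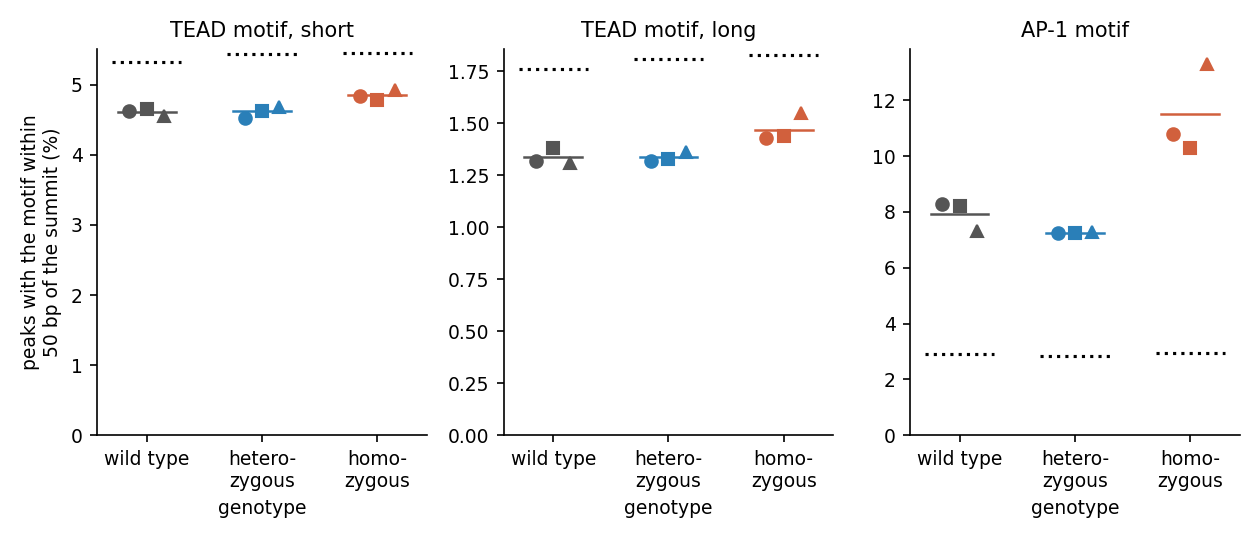
Percent of the 50000 strongest peaks with a motif within 50 bp of the summit (vertical axes, each from 0) for GGAATG (short TEAD motif), TGGAATG (long) and TGANTCA (AP-1). Points are libraries, solid lines genotype means and dotted lines the mean share in windows 2 kb away. The TEAD shares lie below the dotted lines and the AP-1 shares above them in all 3 genotypes.

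Other genes of the pathway were taken from lists of core kinases and adaptors (6 genes), upstream regulators (18), TEAD cofactors (4) and YAP and TAZ targets (19). None passed the adjusted test of peak number. Homozygous means were above wild-type means for 2, 6, 1 and 6 genes of these lists and below for 3, 12, 3 and 11, whereas over all genes 46.0% were above and 36.6% below. The median differences were -0.167, -0.833, -0.333 and -0.667 peaks, against 0 over all genes.

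Among the kinases and adaptors, STK3 (the MST2 kinase, which activates LATS) had 16, 15 and 14 peaks in wild type, 12, 9 and 13 in heterozygous and 6, 8 and 11 in homozygous libraries. MOB1B, a LATS adaptor, had 6, 5 and 6, then 6, 5 and 6, then 2, 4 and 3. Each had 2 regions missing only from homozygous libraries (2 of 6 genes with such a region, 33.3%, against 6.48% of all genes), and the adjusted p-values of the exact permutation test were 0.453 and 0.420. A gene with many regions can more easily hold such a region, and STK3 held 25 and MOB1B 8. No allowance for this was made in the share. At MOB1B the homozygous numbers were below those of all other 6 libraries, as at 3.38% of all genes. At STK3 they were below wild type but overlapped with heterozygous. The share of all genes with homozygous numbers apart from wild type alone was not computed.

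PTPN14, a phosphatase that binds YAP1 and is listed both as a regulator and as a target, had its highest peak numbers in homozygous libraries. They were 11, 8 and 8 in wild type, 6, 13 and 9 in heterozygous and 17, 16 and 17 in homozygous libraries, with 2 regions present only in homozygous libraries (exact permutation p = 0.0357, adjusted 0.420). Of the upstream regulators it was the only 1 of 18 with such a region (5.56%, against 7.26% of all genes). TAOK3, FAT1, FAT4 and AMOT each had a region missing only from homozygous libraries (4 of 18, 22.2%, against 6.48% of all genes). This share too made no allowance for gene length or number of regions. At FAT4, a large cadherin gene, peaks numbered 4, 5 and 5, then 5, 5 and 4, then 2, 3 and 3.

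Of the 19 targets, PTPN14, CRIM1 and ASAP1 had a region present only in homozygous libraries (15.8%, against 7.26% of all genes), and GADD45A, ANKRD1, ARHGEF17, CRIM1, CCDC80, IGFBP3 and ASAP1 had a region missing only from them (36.8%, against 6.48%). No allowance was made for gene length in these shares. CRIM1 had 11, 9 and 11 peaks in wild type, 12, 15 and 15 in heterozygous and 10, 5 and 9 in homozygous libraries (exact permutation p = 0.0107, adjusted 0.420). CCDC80, which encodes a matrix protein, had 5, 5 and 6, then 5, 6 and 6, then 2, 2 and 3.

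Genes with the most similar course of peak number over the 9 libraries were found for the 3 members with the largest between-genotype share among the 6 that had a mean of at least 2 peaks per library (TEAD1, TEAD3, YAP1, WWTR1, LATS1 and CCN1). For CCN1 (between-genotype share of the sum of squares 0.640) they were FBXO9 (Pearson r = 1), SP100 (0.980) and RUNX1 (0.975). RUNX1 had 10, 9 and 14 peaks in wild type, 14, 10 and 9 in heterozygous and 12, 20 and 20 in homozygous libraries. For YAP1 (0.437) they were ENSG00000285382, ZBTB7C and MYO5A (each 0.954), and for TEAD1 (0.143) AACS (0.950), CDH4 (0.915) and GLI1 (0.905). With small whole numbers, 9 libraries and shared intervals between lists, such values describe the lists only.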

How the data were processed

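ATAC-seq of 9 K562 libraries (3 per genotype) was sequenced as 100 bp single-end reads, per the labels' protocols. The submitters' processing notes name cutadapt, Bowtie2 2.2.9, Picard and MACS2 2.1.0, with build hg19 (GRCh37), without roles. The authors deposited 1 peak list per library, with a fold (ratio) over background, a −log10 p-value and a −log10 q-value per peak, a whole-number score not used here, and no read counts. No filter, Tn5 shift or duplicate setting is given in the sources used here; the lowest −log10 p was 2.00 in each list.

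Peaks on chromosomes 1 to 22 and X were ranked by −log10 p and the 50000 strongest kept; overlapping kept peaks (at least 1 bp) were joined into regions. Genes came from GENCODE release 44 on GRCh37. A promoter lay within 1 kb of any of 78394 protein-coding starts. Column 10 did not place summits, so the summit was taken as the centre of a 500 bp interval, or 250 bp from the start of a longer one (17.2% to 19.2% of peaks). Python 3.11.15, numpy 2.4.6, pandas 2.3.3 and scipy 1.17.1 were used. Tests were exact permutations over 280 assignments with Benjamini-Hochberg adjustment over all genes or regions at a threshold of 0.05, checked on simulated data. Peak lists give no counting error.

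Named were all 10 genes, at each the promoter and the other region of highest median percentile, regions differing by presence or rank, listed pathway genes with a homozygous-specific region, and 3 genes of most similar pattern for up to 3 members; further regions were chosen after their values were seen. Members and lists were chosen with earlier results of these data known. Alternatives changed the number of peaks, ranking column, flank, overlap, summit use, pairing, sources and libraries.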

Additional observations from a re-analysis of the deposited data

How the results depend on the processing

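Counts of regions rest on the number of peaks kept. With 20000 strongest peaks, 1 region was specific to homozygous libraries. By full-list ranks it was another region than in the main setting, that upstream of WWTR1 at chr3:149458679-149459197. It ranked 14696, 5037 and 12090 in homozygous libraries and 24183 to 45284 in the others. The CCN2 upstream region ranked 47169 in homozygous 3, and the TEAD1 intronic region ranked 22133 at best, so neither stayed specific. The heterozygous minus wild-type peak number over the 10 genes was then 1 in place of -1. With 100000, regions differing numbered 8 (homozygous against wild type), 3 (heterozygous against wild type) and 13 (homozygous against heterozygous), 7 were homozygous-specific and the heterozygous difference was -7.33. With full lists they numbered 10, 5 and 8, and the peak differences were -2.67 (homozygous) and -21 (heterozygous). Ranking by fold enrichment left 1 region between homozygous and heterozygous and 1 homozygous-specific; a 50 kb flank gave 5 and 4 for homozygous against wild type and heterozygous. Demanding no peak in the other genotype's full list left 0, 0 and 0.

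Without 1 library in turn, regions differing ranged over 3 to 7, 0 to 6 and 2 to 7 for the 3 pairs in that order, and 2 to 6 were homozygous-specific; no gene or region passed the adjusted test in any of these settings. The highest values came without wild type 3 (7 and 6), homozygous 2 (7, 7 and 6) or heterozygous 2 (6, homozygous against heterozygous). Fewer libraries must be present whenever 1 is left out. Without wild type 1 or wild type 2, the counts for homozygous and heterozygous against wild type were 3 and 0. What set these counts was not tested. In added settings, chosen after seeing the data, keeping 1 library of each sharing pair gave 5 regions for heterozygous against wild type, and leaving out wild type 3 and heterozygous 1 gave 7 and 10 for homozygous and heterozygous against wild type.

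Homozygous minus wild-type peak numbers changed sign for TEAD1 (0.333, 1 and 1.33 with 20000, 100000 and all peaks; -2.33 to 0.667 with 1 library left out), LATS1 (0.333 and 4 with 20000 and all peaks; 0.667 with 50 kb; -0.833 to 0.167 with 1 library left out), LATS2 (0.333 and 2), CCN1 (-0.333 and -2; -0.333 with 10 kb), YAP1 (-5.67) and CCN2 (-2) with all peaks, and TEAD4 (-0.167 to 1 with 1 library left out; negative without homozygous 3). The CCN1 promoter difference was 11.5 by fold enrichment. The cause was not tested.

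Motif differences stayed positive in all settings run. GGAATG no longer passed with 20000 (0.0367), 100000 (0.206) or all peaks (0.0354), nor TGGAATG with 20000 (0.0967) or all peaks (0.0305), nor TGANTCA with all peaks (2.29, adjusted p = 0.0643, exact permutation test). Leaving out 1 library gave 0.201 to 0.278, 0.0940 to 0.157 and 2.64 to 4.11 points. TGGAATG missed with wild type 3 and heterozygous 1 left out (0.122, adjusted p = 0.0667, exact permutation test). With sharing lists taken as 1 source the question was another: homozygous sources against all others, with wild type and heterozygous pooled. The 7 sources allow 35 assignments, and all 3 motifs reached the smallest p of that exact permutation test (adjusted p = 0.0286). The labels do not say that replicate numbers pair libraries, and same-numbered libraries correlated at -0.304 to 0.178. With a replicate block, which allows 36 assignments, the differences were 0.242, 0.134 and 3.53. The adjusted p-values of the exact permutation test were 0.111, 0.111 and 0.0833. No gene or region passed with the block. That says little, since 55.6% of them would have had to reach the smallest p of that permutation test, 0.0278, for any to pass. Peak lists without counts limit all of this: a percentile is a place in a list, not a signal, and the depth behind it is unknown.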
